A study of Mus musculus with 6 samples.

Results

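The cells described here carried RNA of at least 2 of 4 genes of early blood progenitors, Flt3, Cd34, Bcl11a and Lmo2, and none of Mpo, Prtn3, Cd3d and Cd3e. They are called member cells below. Among cells with at least 200 genes, at most 2000 unique molecular identifiers (UMIs, one per captured RNA molecule) and at most 30% mitochondrial UMIs, 372 of 60671 met this rule, a share of 0.613% (95% Clopper-Pearson interval 0.553 to 0.679; all intervals in the text cover counting error only). The 8 genes of the rule chose the cells, so their levels are given as a description and support nothing.

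Flt3 encodes the receptor for Flt3 ligand, a growth factor of multipotent and lymphoid-primed progenitors, and Cd34 a surface sialomucin of stem and progenitor cells. Bcl11a and Lmo2 encode nuclear regulators of progenitor and early lymphoid gene expression. As progenitors enter the T lineage under Notch signals, these genes are normally silenced while Il2ra (CD25), Tcf7, Gata3 and, at commitment, Bcl11b are turned on.

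The study asked how a delay in Bcl11b activation changes the fate of such progenitors. Bone marrow progenitors enriched for CD117 were first cultured and sorted into DN1 cells, which carry CD44 but not CD25, and into CD44+ CD25+ cells before (DN2a) or after (DN2b) Bcl11b is switched on. The sorted cells were re-cultured for 4 days on OP9-DL1 stroma (a mouse stromal line that presents the Notch ligand DL1) with cytokines for T and innate lymphoid development, and profiled by sci-RNA-seq3, a combinatorial indexing method that counts UMIs of fixed cells. WT donors were C57BL/6 Bcl11b YFP/YFP mice, and ΔTE donors (labelled Del_TE) carried the same YFP reporter with the timing enhancer of Bcl11b deleted on both alleles. Donors of both genotypes were 2 to 4 months old and of both sexes, and cells of 6 to 8 mice were pooled per genotype. Each of the 6 conditions is 1 library, so no comparison between conditions has a replicate and none is tested. Within a library the cells fall into 3 groups by a part of their barcode, called wells below. The sample labels do not say what these groups are, and they are not taken as replicates.

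The 6 libraries held 3401 to 19489 filtered cells, with a median of 386 to 485 UMIs per cell. No barcode occurred in more than 1 library. Member cells were deeper than the rest, with a median of 627.5 against 433 UMIs, and 75 of the 372 held over 1000 UMIs. Median mitochondrial shares were 22.1% in member cells and 19.9% in the others. Cells with at least 3 genes of a stromal list (collagens, Bgn, Sparc and others) numbered 3211 in all, and 4 of them were member cells. No doublet caller was run, and the part of doublets in the member cells was not tested.

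The rule was met in most cells through Cd34 and Bcl11a. A UMI of Bcl11a was found in 331 member cells, of Cd34 in 293, of Lmo2 in 80 and of Flt3 in 61. The pair of Cd34 and Bcl11a accounted for 254 cells, the pair of Bcl11a and Lmo2 for 56, the pair of Flt3 and Bcl11a for 40, the pair of Flt3 and Cd34 for 30, the pair of Cd34 and Lmo2 for 29 and the pair of Flt3 and Lmo2 for 5. Of the 372 cells, 351 held 2 of the 4 genes, 21 held 3 and none held 4, and 292 held just 1 UMI of each gene that admitted them. Another 36 cells had 2 of the 4 genes but also an excluded gene, most often Mpo (24 cells) or Prtn3 (15 cells), the primary granule genes of granulocyte and monocyte progenitors.

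Of the pairs in the DN1 libraries, Cd34 and Lmo2 alone were seen together more often than apart with intervals that do not overlap. With every cell of the DN1 libraries thinned to 300 UMIs (shallower cells left out), Cd34 was found in 3.67% of 1470 cells with Bcl11a (2.77 to 4.77) and in 2.63% of 16730 cells without it (2.39 to 2.88). Cd34 was found in 9 of 98 cells with Lmo2, or 9.18% (4.29 to 16.7), against 2.68% without it, and in 6 of 85 cells with Flt3, or 7.06% (2.63 to 14.7), against 2.69% without it (2.46 to 2.94), intervals that overlap. Bcl11a was found in 9.41% of the cells with Flt3 (4.15 to 17.7) and 8.07% of those without it (7.68 to 8.48), and in 12.2% of the cells with Lmo2 (6.49 to 20.4) and 8.05% of those without it (7.66 to 8.46). Flt3 was found in 1 of the 98 cells with Lmo2. In the DN2a libraries Cd34 was found in 1.70% of 823 thinned cells with Bcl11a (0.933 to 2.84) and in 1.22% without it (1.08 to 1.37), intervals that overlap. These shares come from single UMIs at low depth, and a member cell is therefore a cell in which 2 of the genes were seen, not a cell known to express both at a high level.

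Free RNA can place UMIs in cells that lack a gene. Its level was not measured, and 2 cell classes are given for comparison. Cells with Cd3d or Cd3e come from the cultured progenitors and may hold RNA of these genes of their own. The shares pool all libraries, so they give no level for the DN1 libraries alone. At 300 UMIs, at least 2 of the 4 genes were found in 0 of 2902 stromal cells, which allows a share of up to 0.103% by a floor of 3 counts (exact 95% limit 0.127%), in 0 of 1022 cells with Cd3d or Cd3e, which allows up to 0.294% (exact limit 0.360%), and in 99 of 45677 cells outside these classes and without Mpo or Prtn3, or 0.217% (0.176 to 0.264). Without thinning the shares were 0.125%, 0.169% and 0.675%, at median depths of 541, 466 and 426 UMIs. Bcl11a alone was found in 0.861% of thinned stromal cells (0.558 to 1.27) and in 5.03% of the other cells (4.83 to 5.23).

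Member cells came mostly from the DN1 start. The WT DN1 library held 162 among 10925 cells (1.48%, 1.26 to 1.73) and the ΔTE DN1 library 142 among 10294 (1.38%, 1.16 to 1.62), together 304 of the 372. The WT DN2a library held 45 (0.231%, 0.168 to 0.309), the ΔTE DN2a library 18 (0.155%, 0.0920 to 0.245) and the WT DN2b library 5 (0.101%, 0.0327 to 0.235). None was found among 3401 cells of the ΔTE DN2b library, which allows a share of up to 0.0882% by a floor of 3 counts and 0.108% by the exact 95% limit. The WT DN2b and ΔTE DN2b shares therefore could not be separated. The share was 6.42-fold higher after the DN1 than after the DN2a start in WT (4.59 to 9.15) and 8.89-fold higher in ΔTE (5.42 to 15.4). Within the WT DN1 library the 3 wells gave shares of 1.24%, 1.54% and 1.77%, and the highest well of the WT DN2a library gave 0.289%. The spread between cultures was not measured.

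The order of the starts was the same at equal depth. Thinned to 300 UMIs, the rule kept 102 cells in all, at 0.424% in WT DN1 (0.305 to 0.575), 0.485% in ΔTE DN1 (0.354 to 0.648), 0.0813% in WT DN2a (0.0420 to 0.142) and 0.0395% in ΔTE DN2a (0.0108 to 0.101), and none in the DN2b libraries. The DN1 share was then 5.22-fold the DN2a share in WT (2.69 to 10.9).

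**Figure D1:**
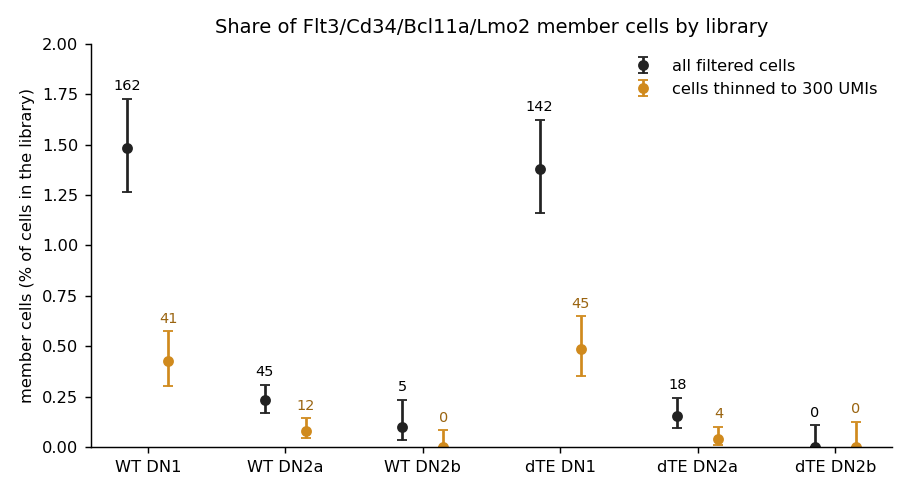
Share of member cells (percent of the cells in each library, y axis) in the 6 libraries (x axis), over all filtered cells in black and over cells thinned to 300 UMIs in orange, with 95% Clopper-Pearson intervals as bars and the number of member cells above each. The WT DN1 and ΔTE DN1 libraries sit at 1.48% and 1.38%, above both DN2a libraries and both DN2b libraries on either count.

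Between genotypes the shares could not be separated at this depth. Set against WT, the ΔTE share had a log2 ratio of -0.10 at the DN1 start (-0.44 to 0.23) and -0.57 at the DN2a start (-1.45 to 0.24), and at equal depth 0.19 (-0.45 to 0.84) and -1.04 (-3.13 to 0.68). Cells with only 1 of the 4 genes did not differ between genotypes beyond counting error at the DN1 start (15.5% in WT and 14.8% in ΔTE, log2 ratio -0.07, -0.17 to 0.03), while at the DN2b start they made up 4.97% of WT and 2.53% of ΔTE cells (log2 ratio -0.98, -1.35 to -0.62). With 1 library each, genotype and library cannot be told apart.

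For the genes outside the rule, the UMIs observed in member cells were set against those expected from other cells of the same library and depth (5 ranges of UMIs per cell), as a ratio with an exact Poisson interval. UMIs of 1 cell are not independent, so these intervals are narrower than the spread between cells would give. Among 2391 genes with at least 50 observed plus expected UMIs the median log2 ratio was 0.04. A ratio of at least 2-fold was found for 8 genes higher in member cells, 0.335% of those compared, and for 16 genes lower, 0.669%. These are counts past a fold, not tests. With at most 20% mitochondrial UMIs, which left 144 member cells, 0 genes were higher and 2 lower, and without the ΔTE DN1 library 1 was higher and 4 lower.

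Of 17 transcription factors of stem and progenitor cells 9 were compared, and 2 of them, Mef2c and Spi1, were among the 8 genes at least 2-fold higher. Of the 9, 7 lay above and 2 below a ratio of 1, with a median log2 ratio of 0.40 against the 0.04 of all genes. Mef2c, a factor of lymphoid and myeloid progenitors, had 95 UMIs in 75 member cells where 20.8 were expected, 4.57-fold more (3.70 to 5.59), or 353 against 77.2 CPM (UMIs of a gene scaled to a common total of UMIs). It was the highest ratio of all genes compared. Spi1 (PU.1), which directs early myeloid and lymphoid programs and is shut down as T cells commit, had 38 UMIs where 16.1 were expected, 2.36-fold more (1.67 to 3.24). Meis1, a homeobox factor of stem cells, was 1.80-fold higher (1.32 to 2.40) and Nfe2 1.59-fold higher (1.10 to 2.23). Erg, Sox4, Lyl1 and Ikzf2 had log2 ratios of 0.15, 0.11, 0.40 and -0.13, with intervals that span 0. By library Ikzf2 was not uniform, with 22 UMIs where 46.2 were expected in WT DN1 and 21 where 10.7 were expected in WT DN2a. In ΔTE DN1 it had 40 where 40.6 were expected. Myb, needed for progenitor proliferation, was lower at -0.33 (-0.59 to -0.08). Most of this shortfall lay in ΔTE DN1, with 37 UMIs where 62.7 were expected (-0.76, -1.27 to -0.30). WT DN1 had 59 where 62.6 were expected (-0.09, -0.48 to 0.28). Hoxa9, singled out after its values were seen, had 8 UMIs where 0.539 were expected.

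Surface and signalling genes of progenitors moved less. Of 7 compared, none reached 2-fold. Cd44, the adhesion receptor that marks DN1 and DN2 cells, was 1.69-fold higher (1.34 to 2.11) and Cd27 1.38-fold higher (1.02 to 1.82). Kit, the stem cell factor receptor used to enrich the starting cells, had 70 UMIs where 61.3 were expected (log2 ratio 0.19, -0.17 to 0.53). Procr and Slamf1, markers of stem cells, had no UMI in member cells, but under 1 UMI of each was expected, so their level was not detectable at this depth.

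Genes of myeloid and dendritic cells had few UMIs and did not go 1 way. None of the 18 granulocyte and monocyte genes reached 50 UMIs. The list as a whole had 101 UMIs where 65.4 were expected (log2 ratio 0.63, 0.33 to 0.91). Csf1r, the receptor of macrophage colony-stimulating factor, accounted for 26 of these where 5.00 were expected, and Cd300a for 20 where 6.85 were expected. The neutrophil genes S100a9, S100a8 and Ngp went the other way, with 1, 2 and 0 UMIs where 7.66, 4.24 and 3.25 were expected, and only the interval of S100a9 excludes a ratio of 1 (log2 ratio -2.94, -8.24 to -0.46). The other cells used as reference kept those with Mpo or Prtn3, which the rule bars from member cells. Lower granulocyte genes in member cells can therefore follow in part from the rule itself. The list was near its expected level in WT DN1, with 39 UMIs where 35.0 were expected, and above it in ΔTE DN1, with 54 where 27.3 were expected. Among genes of dendritic and other antigen-presenting cells, the class II chains H2-Ab1 and H2-Aa had 19 and 17 UMIs where 4.39 and 5.25 were expected, and Irf8, a factor of monocytes and dendritic cells, 15 where 5.05 were expected. In cells with at most 20% mitochondrial UMIs the log2 ratio of H2-Ab1 was -0.047. Of the 4 dendritic genes compared, Ccr2 and Bst2 lay above a ratio of 1 and Runx2 and Tcf4 below it, none by 2-fold. Elane, Ms4a3 and Cebpe, which mark granulocyte progenitors, were at 0, but only 1.38, 0.803 and 0.0926 UMIs were expected, so a lower level was not detectable at this depth.

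Lymphoid priming genes stood close to the rest: 3 were compared, and Ikzf1, Satb1 and Notch1 had log2 ratios of 0.21, 0.35 and -0.18, all with intervals that span 0. Il7r, the IL-7 receptor of lymphoid progenitors, had 13 UMIs where 23.8 were expected (log2 ratio -0.87, -1.78 to -0.10). B-lineage genes had 7 UMIs in all where 19.4 were expected, a value set by Ebf1, with 2 where 15.5 were expected. Cd79b had 5 where 3.32 were expected, and the other 8 genes, at 0, had at most 0.121 expected each, too few to read.

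Genes of the T lineage were lower. Of 9 compared, 1 was at least 2-fold lower and none 2-fold higher, with a median log2 ratio of -0.55. Thy1, an early T-lineage surface marker, had 26 UMIs where 63.7 were expected, 2.45-fold fewer (log2 ratio -1.29, -1.91 to -0.74). Bcl11b had 30 where 58.7 were expected (-0.97, -1.54 to -0.45), Lck, the kinase of the T-cell receptor, 20 where 35.9 were expected (-0.84, -1.55 to -0.21), and Il2ra 311 where 534.9 were expected (-0.78, -0.95 to -0.62). Tcf12 and Tcf7 stood at -0.55 and -0.50. Runx1, Gata3 and Tox had ratios close to 1, with log2 values of 0.00, 0.08 and 0.11. By library Runx1 was not uniform. It stood at 0.67 (0.32 to 1.00) in WT DN2a, and at -0.15 in WT DN1, -0.04 in ΔTE DN1 and -0.62 in ΔTE DN2a, with intervals that span 0. Dtx1, a Notch target, went the other way, with 24 UMIs where 10.9 were expected (1.13, 0.49 to 1.71), below the 50 UMIs of the comparison. The reference kept cells with Cd3d or Cd3e, which the rule bars, so lower T-lineage genes can follow in part from the rule. Against cells with none of the 8 rule genes, Bcl11b stood at -1.07 (-1.63 to -0.55).

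Innate lymphoid, NK and mast cell genes were split. Cd7, found on early lymphoid and NK cells, was 2.81-fold higher (2.13 to 3.63; 58 UMIs in 40 cells), and Id2, the inhibitor that opens innate lymphoid fates, had 27 UMIs where 9.62 were expected. Zbtb16 (PLZF), the factor of innate lymphoid precursors, had 43 where 86.9 were expected, 2.02-fold fewer (log2 ratio -1.01, -1.48 to -0.59). Most of this shortfall lay in ΔTE DN1, with 8 UMIs where 41.9 were expected. WT DN1 had 22 where 31.1 were expected (-0.50, -1.17 to 0.10), and without ΔTE DN1 the ratio was -0.36. The cytotoxic granule gene Gzma had 111 UMIs where 197 were expected (-0.83, -1.11 to -0.56). Gzmb differed little, at -0.08 (-0.48 to 0.30). Cpa3, a protease gene of mast cells and their progenitors, was lower at -0.82 (-1.17 to -0.49). Of the 14 mast, basophil and megakaryocyte genes 10 had no UMI, but each had at most 0.267 expected, too few to read.

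Cell cycle genes differed little. None of 11 S-phase genes and none of 10 G2/M genes reached 2-fold in either direction, with list log2 ratios of -0.05 (-0.16 to 0.07) and 0.15 (0.06 to 0.24).

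The highest ratios among genes with the same direction in every library with at least 5 expected UMIs, list genes aside, were those of Itga9 (2.21-fold), Tgfbr2 (2.17-fold), Samhd1 (2.15-fold), Ifi203 (2.15-fold) and Fry (2.13-fold), followed by Unc93b1, Cd82, Smad7, Rgs18, Gm2a, Cd180 and Mbp at 1.93-fold to just under 2-fold. Tgfbr2 is the type II receptor of TGF-beta and Smad7 an inhibitor of its signal. Unc93b1 carries endosomal Toll-like receptors and Cd180 is a Toll-like receptor homologue. The lowest, list genes included, were Bgn and Col1a2, matrix genes of the stroma, with 6 and 9 UMIs where 50.1 and 52.9 were expected, followed by Akr1c13, Thy1, Mctp1, Xbp1, Aff1, Cep295, Mt1 and Fbxw4 at 2.05-fold to 2.88-fold fewer. The stromal list had 81 UMIs where 317 were expected, although Pdgfrb, a receptor gene on it, had 33 where 17.0 were expected.

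**Figure D2:**
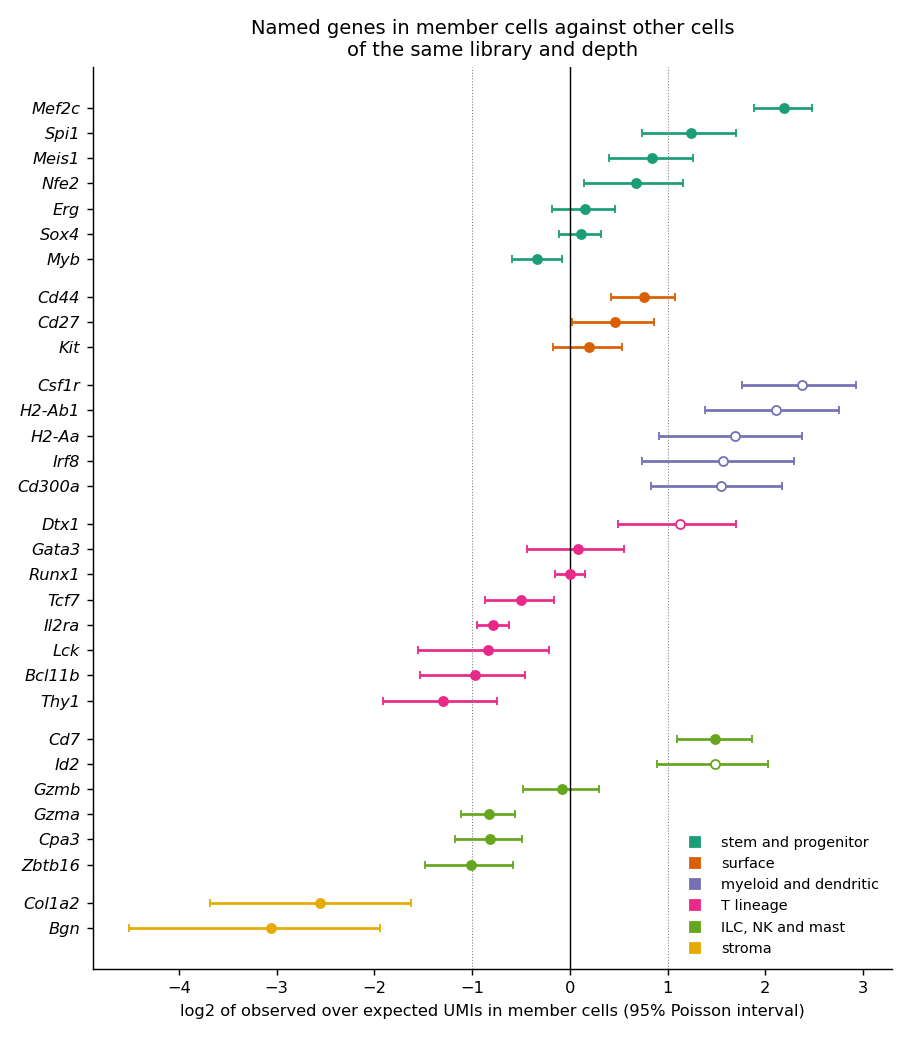
Log2 ratio of observed over expected UMIs in the 372 member cells (x axis) for genes of the lists, grouped by function (colours), with exact 95% Poisson intervals. Filled points are genes with at least 50 observed plus expected UMIs, open points genes with 20 to 50, and dotted lines mark 2-fold. Mef2c, Spi1 and Cd7 lie past the upper line, Thy1, Zbtb16, Col1a2 and Bgn past the lower. The low value of Zbtb16 came mostly from the ΔTE DN1 library.

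The lower ratios of several genes, Il2ra among them, came from the libraries of the DN1 start. Il2ra had 91 UMIs in the member cells of WT DN1 where 194 were expected and 66 in ΔTE DN1 where 198 were expected, but 106 in WT DN2a where 94.9 were expected, 32 in ΔTE DN2a where 34.4 were expected and 16 in WT DN2b where 13.9 were expected. The log2 ratios were -1.09 (-1.40 to -0.79) and -1.59 (-1.96 to -1.24) in the DN1 libraries and 0.16 (-0.13 to 0.43) in WT DN2a. Gzma behaved alike, with 36 UMIs against 63.6 expected in WT DN1, 35 against 92.7 in ΔTE DN1 and 23 against 22.4 in WT DN2a, as did Cpa3, with 25 against 47.6, 20 against 53.4 and 19 against 16.8. Thy1 was below its expected UMIs in all 5 libraries with member cells, with 6 where 19.9 were expected in WT DN1, 5 where 21.7 were expected in ΔTE DN1 and 9 where 13.3 were expected in WT DN2a, and outside the DN1 start its intervals span 0. Summed over the T-lineage list the log2 ratio was -0.49 in WT DN1 (-0.62 to -0.36), -0.76 in ΔTE DN1 (-0.92 to -0.61), 0.22 in WT DN2a (0.05 to 0.39) and -0.20 in ΔTE DN2a (-0.53 to 0.11).

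Bcl11b itself showed the same split. It had 4 UMIs in the WT DN1 member cells where 27.3 were expected, and 19 UMIs, in 10 cells, in WT DN2a where 14.6 were expected, with log2 ratios of -2.77 (-4.65 to -1.41) and 0.38 (-0.35 to 1.02). It had 7 in WT DN2b where 4.21 were expected. Without the WT DN2a library the Bcl11b ratio over all member cells was -2.00, and without WT DN1 it was -0.27. By contrast Mef2c had 43 UMIs where 11.5 were expected in WT DN1 and 48 where 8.60 were expected in ΔTE DN1. In WT DN2a it had 3 where 0.532 were expected (log2 ratio 2.50, 0.22 to 4.04). Spi1 had 20 against 7.67 expected in WT DN1, 13 against 7.07 in ΔTE DN1 and 4 against 0.890 in WT DN2a. In ΔTE DN2a each had 1 UMI, where 0.0998 of Mef2c and 0.332 of Spi1 were expected. In WT DN2b neither had a UMI, where 0.0666 and 0.112 were expected. Both libraries had too few UMIs of these genes to read. Over the stem and progenitor list the log2 ratio was 0.25 in WT DN1 (0.09 to 0.40) and 0.30 in ΔTE DN1 (0.14 to 0.46). It was much the same in WT DN2a, at 0.29 (-0.01 to 0.58), and ΔTE DN2a, at 0.25 (-0.28 to 0.73). The list thus did not set the starts apart. In the member cells of both DN1 libraries Mef2c was higher and the T-lineage list lower. Spi1 was higher in WT DN1, while in ΔTE DN1 its interval spans 0 (0.88, -0.03 to 1.65). Other progenitor factors went the other way. Myb was lower in ΔTE DN1 (-0.76, -1.27 to -0.30), and Ikzf2 had 22 UMIs where 46.2 were expected in WT DN1. Mef2c and Spi1 were also above their expected UMIs in WT DN2a, so neither set the DN1 member cells apart. In the 63 member cells of the DN2a libraries the T-lineage list stood at 0.22 (WT) and -0.20 (ΔTE).

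**Figure D3:**
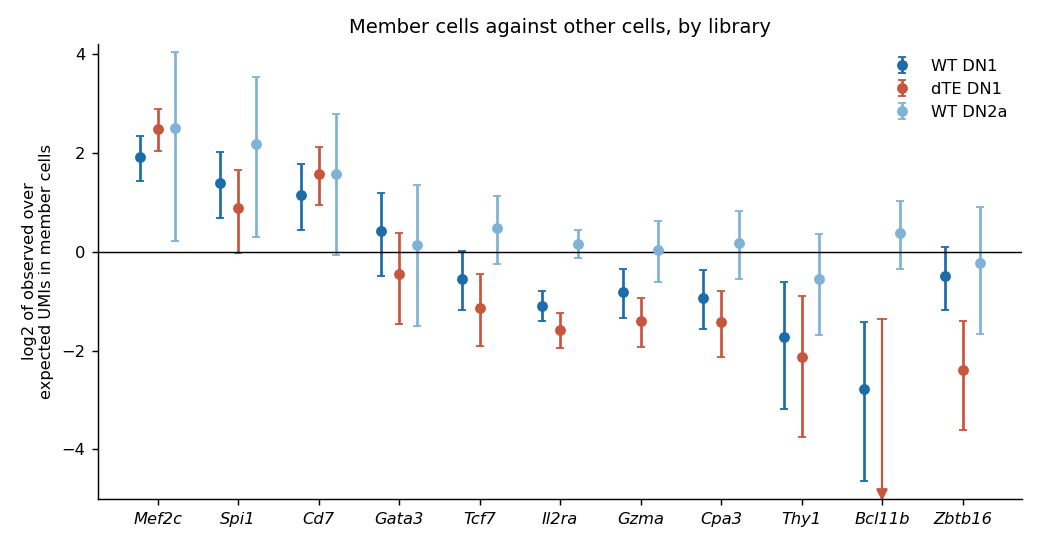
Log2 ratio of observed over expected UMIs in member cells (y axis) for 11 genes (x axis) in the WT DN1, ΔTE DN1 and WT DN2a libraries, with exact 95% Poisson intervals. An arrow marks 0 observed UMIs, with its upper limit as a dash. Mef2c, Spi1 and Cd7 lie above 0 in all 3 libraries, while Il2ra, Gzma and Cpa3 lie below 0 in both DN1 libraries and between 0.04 and 0.17 in WT DN2a.

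Several genes, though not all, differed more the more of the 4 genes a cell held. Against cells with none of the 8 genes, Mef2c was 1.22 higher on the log2 scale in the 5557 cells with 1 of the 4 genes (1.07 to 1.37), 2.54 in the 351 member cells with 2 (2.21 to 2.84) and 3.21 in the 21 with 3 (2.15 to 4.09). Csf1r stood at 1.06 (0.74 to 1.37) with 1 gene and 2.75 (2.13 to 3.32) with 2, and H2-Ab1 at 0.95 and 2.20. Il2ra stood at -0.15, -0.79 and -3.15 with 1, 2 and 3 genes, and Bcl11b at -0.41 and -0.99 with 1 and 2 genes, with no UMI in the cells with 3, where 3.09 were expected. Spi1 did not follow this order, at 0.50, 1.47 and -0.08 (-5.38 to 2.40), nor did the granulocyte and monocyte list, at 0.32, 0.91 and -0.40 (-2.67 to 1.15), where the 21 cells held 1 and 3 UMIs. Csf1r and H2-Ab1 had 1 UMI each in these 21 cells. All 21 came from the DN1 libraries, 10 from WT and 11 from ΔTE. Cells with 2 genes came also from the DN2a and WT DN2b libraries. The number of genes and the start therefore cannot be told apart in this order.

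The nearest comparison is with the 1802 cells that held Mpo or Prtn3, which the rule keeps out. They too had more Mef2c (log2 ratio 1.22, 0.98 to 1.44), Spi1 (0.81, 0.53 to 1.09), Csf1r (1.30, 0.82 to 1.74) and Irf8 (1.97, 1.58 to 2.34) and less Bcl11b (-1.20, -1.46 to -0.96) and Thy1 (-1.38, -1.64 to -1.13) than cells with none of the 8 genes. They differed from member cells in H2-Ab1, with 2 UMIs where 18.0 were expected (-3.17, -6.22 to -1.32) against 2.17 in member cells (1.44 to 2.81). Id2 stood at -1.33 (-2.08 to -0.67) against 1.46 (0.86 to 2.004), and Cd7 at 0.12 (-0.19 to 0.41) against 1.67 (1.27 to 2.04). Zbtb16 was near its expected level in Mpo or Prtn3 cells, at -0.13 (-0.29 to 0.01), and at -1.07 (-1.53 to -0.64) in member cells. Against all other cells, the shortfall of Zbtb16 in member cells lay mostly in ΔTE DN1, as given above. The intervals of these 4 genes do not overlap between the classes, and that difference was not tested.

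**Figure D4:**
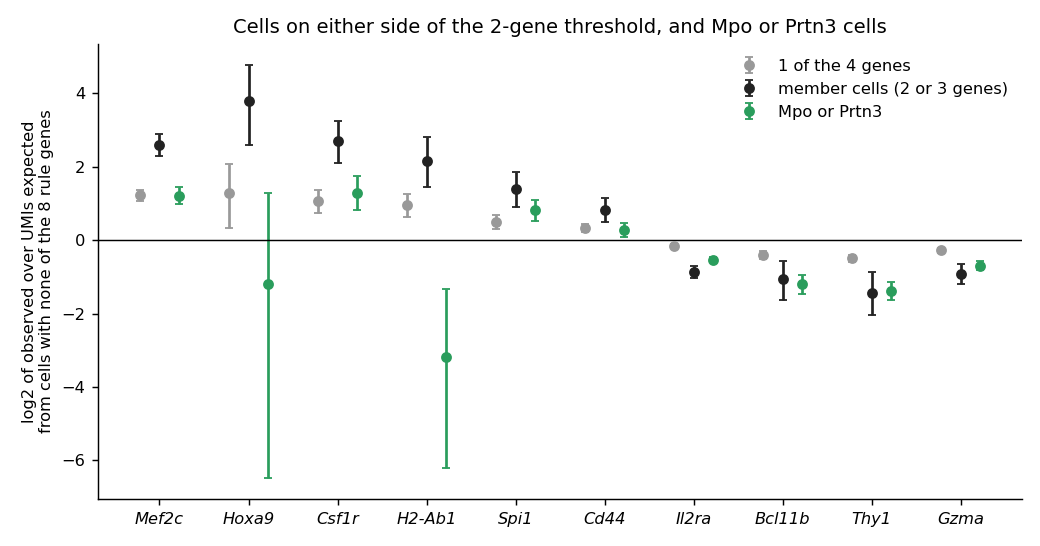
Log2 ratio of observed UMIs over those expected from cells with none of the 8 rule genes (y axis) for 10 genes (x axis), in cells with 1 of the 4 genes (grey), member cells (black) and cells with Mpo or Prtn3 (green), with exact 95% Poisson intervals. Mef2c lies at 1.22 with 1 gene and at 2.59 in member cells, and H2-Ab1 lies at 2.17 in member cells and -3.17 in Mpo or Prtn3 cells.

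The member cells were also described in 2 splits, both chosen after the values were seen and the first by a gene of the rule, so that they describe these cells and test nothing. The 61 cells with a Flt3 UMI, of which 34 came from WT DN1, 26 from ΔTE DN1 and 1 from WT DN2a, nearly lacked the genes of later stages. They had 11 UMIs of Il2ra where 82.3 were expected (log2 ratio -2.90, -3.91 to -2.06), against -0.69 (-0.85 to -0.52) in the 311 member cells without Flt3. They had 3 UMIs of Gzma where 32.7 were expected, 2 of Cpa3 where 20.9 were expected, 1 of Zbtb16 where 14.7 were expected, 2 of Tcf7 where 15.2 were expected and none of Bcl11b where 8.19 were expected. The Mef2c ratios of the cells with Flt3 (2.89, 2.22 to 3.49) and without it (2.52, 2.16 to 2.85) overlapped in their intervals, and that of Cd44 was higher with Flt3, at 1.75 (1.13 to 2.32) against 0.54 (0.13 to 0.93). Kit was near its expected level in both. The cells without Flt3 came also from the DN2a and WT DN2b libraries, where Il2ra in member cells was near its expected level. Flt3 and the start therefore cannot be told apart in these contrasts.

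**Figure D5:**
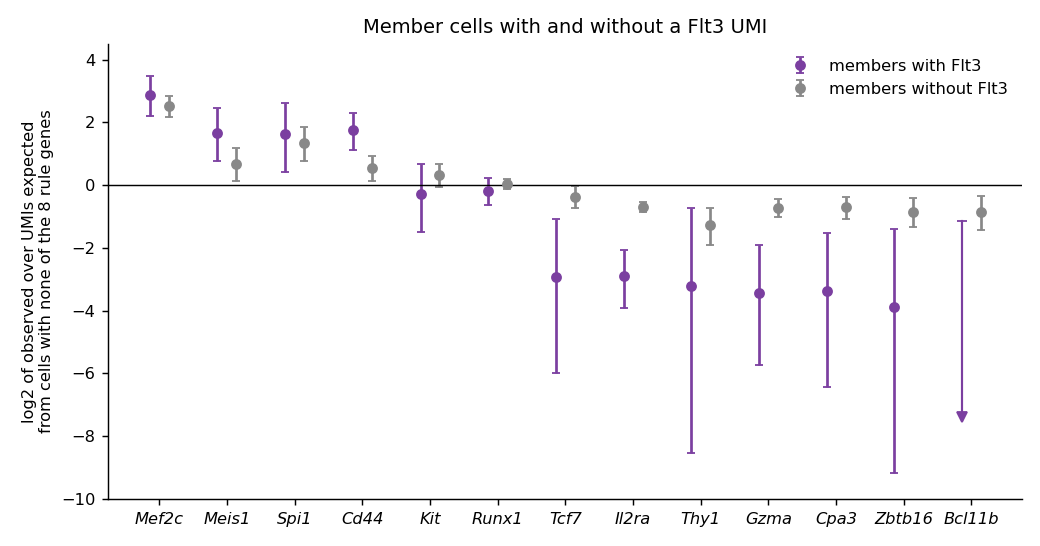
Log2 ratio of observed UMIs over those expected from cells with none of the 8 rule genes (y axis) for 13 genes (x axis) in the 61 member cells with a Flt3 UMI (purple) and the 311 without (grey), with exact 95% Poisson intervals. The arrow marks 0 UMIs of Bcl11b. Mef2c lies at 2.89 and 2.52, while Il2ra lies at -2.90 and -0.69. Almost all cells with Flt3 came from the DN1 libraries, while those without came from all 3 starts.

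A second split follows antigen-presenting genes. A UMI of Csf1r, H2-Aa, H2-Ab1, H2-Eb1, Cd74 or Ciita was found in 40 of the 372 member cells, or 10.8% (7.79 to 14.4), and in 1.33% of the other cells (1.24 to 1.42). This contrast was matched for neither library nor depth, and member cells were deeper and mostly of the DN1 start. Within WT DN1 the share was 7.41% of member cells (3.89 to 12.6) and 2.57% of other cells (2.28 to 2.89). Within ΔTE DN1 it was 16.9% (11.1 to 24.1) and 3.14% (2.81 to 3.50), also without matching for depth. The share was 22.8% of the 79 member cells without Cd34 (14.1 to 33.6) and 7.51% of the 293 with Cd34 (4.77 to 11.2). These 40 cells held 28 of the 58 Cd7 UMIs, 18 of the 27 Id2 UMIs and 9 UMIs of Cybb, a phagocyte oxidase gene, where 0.478 were expected. They held no UMI of Gzma where 24.5 were expected, no UMI of Zbtb16 where 11.0 were expected and 8 of Il2ra where 58.9 were expected. In the 332 member cells without these genes, set against other cells without them, Mef2c stood at 2.25 (1.92 to 2.56), Spi1 stood at 1.11 (0.52 to 1.64) and Meis1 at 0.87 (0.39 to 1.31). Cd7 stood at 0.94 (0.37 to 1.45) and Id2 to 0.40 (-0.73 to 1.32), and the granulocyte and monocyte list, which contains Csf1r, at -0.56 (-1.12 to -0.05). T-lineage genes were lower in these cells too, with Thy1 at -1.21 (-1.84 to -0.65) and Bcl11b at -0.87 (-1.44 to -0.36).

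In ΔTE member cells the gene whose enhancer was deleted was not detected. Bcl11b had 4 UMIs in WT DN1 (34.9 CPM), 19 in WT DN2a (628 CPM) and 7 in WT DN2b, and none in the ΔTE DN1 and DN2a member cells. At the WT rate of each start 11.5 UMIs would have been found in ΔTE. Of these 11.5, 7.78 come from the DN2a start and 3.71 from the DN1 start, where a lack of UMIs could not be told from the WT level. The exact upper limit of the log2 ratio was -1.51, and it lay above 0 without either DN2a library (0.71), with at most 20% mitochondrial UMIs (0.31) or with at most 1000 UMIs per cell (0.37). In all other cells Bcl11b was present in ΔTE at a lower level, with a log2 ratio to WT of -1.01 (-1.07 to -0.95) over the 3 starts.

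Most genes differed little between ΔTE and WT member cells. Of 985 genes with at least 50 UMIs in member cells, the ratio standardized by start was at least 2-fold higher in ΔTE for 6, 0.609%, and at least 2-fold lower for 7, 0.711%. The rule for naming genes of this comparison asked for 1 direction in all 3 starts, which no gene could meet with 0 member cells in ΔTE DN2b, so the genes named here were chosen after their values were seen. Mid1, an X-linked ubiquitin ligase gene, had 93 UMIs in WT DN1 and 17 in WT DN2a against 5 and 1 in ΔTE (log2 ratio -3.95, -5.43 to -2.78). The same was found in the other cells, at -3.09 (-3.18 to -3.00), so Mid1 was not particular to member cells. The rest of the genes past 2-fold lay between -1.19 (Slc3a2) and 1.44 (Ivns1abp).

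Zbtb16 ran opposite ways in member cells and other cells of the DN1 start. Member cells held 22 UMIs in WT (192 CPM) and 8 in ΔTE (75.3 CPM), a log2 ratio of -1.35 (-2.73 to -0.13), whereas other cells held 268 CPM in WT and 397 in ΔTE, a ratio of 0.57 (0.48 to 0.66). Cells with 1 of the 4 genes lay on the side of the other cells, at 0.40 (0.15 to 0.65). At the DN2a start both genotypes had 6 UMIs of Zbtb16 in member cells, with a ratio of 1.29 (-0.61 to 3.19) that spans 0. Gzma and Fcer1g, a signalling chain of innate cells, were likewise higher in ΔTE among other DN1-start cells, at 0.64 (0.57 to 0.70) and 0.81 (0.68 to 0.94), and stood at 0.07 (-0.65 to 0.78) and -0.68 (-1.90 to 0.47) in member cells. Mef2c and Spi1 had log2 ratios of 0.25 (-0.36 to 0.86) and -0.53 (-1.60 to 0.49) in member cells over the starts, so that a difference between genotypes was not detectable in either.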

How the data were processed

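The authors deposited, for each of the 6 libraries, raw UMI counts per gene and cell barcode from sci-RNA-seq3. The submitters' processing notes name the build mm9, and the aligner is not given in the sources used here. Cell and gene filters were those of the study's methods, with genes kept when found in at least 15 cells. Member cells and gene lists were chosen with earlier results of these data known. Expected UMIs came from non-member cells of the same library and depth range (boundaries at 300, 400, 600 and 1000 UMIs), with the 8 rule genes left out of totals. Genes with at least 50 observed plus expected UMIs were compared, and 2-fold was the call. Named are list genes with at least 20 observed plus expected UMIs, and the 15 highest and 10 lowest compared genes with 1 direction in every library with at least 5 expected UMIs, mitochondrial, Xist and Y genes aside. Others named were chosen after their values were seen. Alternatives covered the rule, filters, thinning, reference, totals and left-out libraries or wells. No doublet caller was run. The code was tested on simulated counts. Python 3.11.15, numpy 2.4.6 and scipy 1.17.1 were used. Depth is 1 library per condition, so intervals at 95% give counting error only.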

Additional observations from a re-analysis of the deposited data

Results flagged for a closer look

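A scan by library or by start covered a chosen set of genes and the gene lists, not every gene named here. In 3 cases of this scan groups ran opposite ways under the same contrast, with intervals on opposite sides of 0. The 3 cases were picked from many genes and lists. Ikzf2 was outside the scan by library. It had 22 UMIs in the WT DN1 member cells where 46.2 were expected, and 21 in WT DN2a where 10.7 were expected. The intervals were not widened for the number of comparisons, so some such cases can arise from counting error alone. None of these differences was tested, since each condition is 1 library. Summed over the T-lineage list, member cells against other cells had log2 ratios of -0.49 (-0.62 to -0.36) in WT DN1 and -0.76 (-0.92 to -0.61) in ΔTE DN1, but 0.22 (0.05 to 0.39) in WT DN2a. The list had 294 UMIs in WT DN2a where 252 were expected, and Runx1 alone 74 of these where 46.6 were expected. At the DN1 start Zbtb16 had a ΔTE to WT log2 ratio of -1.35 (-2.73 to -0.13) in member cells, on 8 and 22 UMIs, and of 0.57 (0.48 to 0.66) in the other cells. At the DN2a start Tpx2, a mitotic spindle gene, had a ratio of 2.29 (0.39 to 4.47) in member cells, on 8 and 4 UMIs, and of -0.15 (-0.25 to -0.06) in the other cells.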

How the results depend on the processing

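Each condition was 1 library, so a difference between conditions cannot be told from one between libraries, and at a median of 434 UMIs per cell most genes gave too few UMIs for a value by library. The share of member cells was 0.0346% with at least 3 of the 4 genes, 0.199% after thinning to 300 UMIs, 0.881% with at least 300 genes per cell, 0.468% with at most 20% mitochondrial UMIs, 0.526% with at most 1000 UMIs, and 0.536%, 0.163%, 0.0989% and 0.498% with Flt3, Cd34, Bcl11a or Lmo2 dropped from the rule. The 8 genes 2-fold higher became 0 with at least 3 genes, 1 after thinning, 0 with at most 20% mitochondrial UMIs and 2, 0 and 5 with Cd34, Bcl11a or Lmo2 dropped. The 16 genes 2-fold lower became 0 with at least 3 genes, 3 after thinning, 2 with at most 20% mitochondrial UMIs and 8, 8 and 3 with Flt3, Cd34 or Bcl11a dropped. Against cells with none of the 8 genes 16 were higher, and with a minimum of 20 UMIs 72 were higher and 71 lower. Without the cells with Csf1r or MHC class II UMIs, an alternative chosen after seeing the data, 5 were higher. Dropping Bcl11a moved the ΔTE to WT log2 ratio of the DN1 share to 0.24. The Bcl11b log2 ratio of member to other cells, -0.97, was -3.41 after thinning, -0.33 with at most 20% mitochondrial UMIs, -2.04 with at most 1000 UMIs, -2.08 without Bcl11a and -3.20 in the DN1 libraries alone, a choice also made after seeing the data. The upper limit of the ΔTE to WT log2 ratio of Bcl11b in member cells, -1.51, was 6.84 after thinning, 0.31 with at most 20% mitochondrial UMIs, 0.37 with at most 1000 UMIs and -1.43 with totals without mitochondrial UMIs, so a lower level in ΔTE member cells was not detectable under the first 3. The cause of these changes was not tested, other than that fewer cells entered. Leaving out 1 library or well at a time, the share ranged from 0.422% to 0.794%, the DN1 ratio from -0.27 to 0.02, the DN2a ratio from -0.95 to -0.34, the genes higher from 1 to 11 and lower from 4 to 19, the Bcl11b ratio from -2.00 to -0.27, and the Bcl11b limit from -1.80 to 0.71. Without WT DN1 4 genes were higher and 10 lower, and without ΔTE DN1 1 and 4. Without WT DN2a or ΔTE DN2a the Bcl11b limit was 0.71. Reversed directions were Spi1 with at least 3 genes (-0.28), H2-Ab1 with at most 20% mitochondrial UMIs (-0.047), the granulocyte and monocyte list with at least 3 genes (-0.61), without Bcl11a (-0.65) and without Csf1r or MHC class II cells (-0.56), the dendritic list without those cells (-0.076), and the stromal list without stromal cells (0.23), also added after seeing the data. Of 817 values of 20 gene and list ratios, 724 moved by less than their interval, 86 by more and 7 changed direction. Most of these values came from leaving out 1 library or well. Leaving out ΔTE DN2b or its wells, which held no member cells, could not move a ratio. The tally is therefore no measure of how stable the ratios are. No paired analysis was possible because each condition has 1 library so that the groups share only the number 1, given in accession order, which pairs nothing.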
